A study of Mus musculus with 16 samples.

Results

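Bleomycin and an inhibitor of miR-199a-5p were combined in a crossed design, and the measure described here is their interaction: the effect of bleomycin on a transcript in mouse lungs given the inhibitor, minus the effect of bleomycin in lungs given a control oligonucleotide. All 16 arrays of the series enter it, so the samples were chosen by their titles and 16 of 16 were used. The title of the study puts the question as the impact of miR-199a-5p silencing on lung fibrosis brought on by bleomycin, and the interaction asks for each gene whether the response to bleomycin is smaller, larger, turned round or of the same size when the inhibitor is present. The animals were C57BL/6 mice of 9 to 12 weeks. The oligonucleotide, either LNA-miR-199a-5p or else LNA-control, was given into the trachea at 5 mg/kg on 3 occasions. The earlier doses came 4 days and 2 days before bleomycin, itself given into the trachea at 1 unit/kg, or its vehicle PBS, and the last came 4 days after. There were 3 arrays of PBS with LNA-control, 3 of PBS with LNA-miR-199a-5p, 5 of bleomycin with LNA-control and 5 of bleomycin with LNA-miR-199a-5p, so every group, PBS included, had received an oligonucleotide. The lungs were extracted whole, and in such bulk RNA fewer cells of a type and less RNA per cell cannot be told apart. The labels do not give the sex of the animals or the day of collection, and they do not say that each replicate is a separate animal, so the p-values may in part measure technical spread. The tissue was recognisable as lung: Sftpc, the surfactant protein made by type 2 alveolar cells, had a mean of 18.304 on the log2 intensity scale, against a median of 8.47 over all genes.

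Bleomycin breaks DNA. In mouse lung it injures the epithelium and the capillary endothelium, activates p53, draws in monocytes that become lipid-handling macrophages, and is followed by deposition of collagen. A microRNA lowers the messenger RNA or the translation of its targets by pairing with them through its seed, and a locked nucleic acid (LNA) oligonucleotide of complementary sequence blocks this pairing. miR-199a-5p is known in fibrosis research as a microRNA of fibroblasts that lowers caveolin-1. The mature strand is shown because the inhibitor is directed at it, in the RefSeq form on GRCm38.p6, with the seed (bases 2 to 8) in capitals. Both mouse genes encode it, at chr1:162217844-162217866 on the plus strand (Mir199a-2) and chr9:21496537-21496559 on the minus strand (Mir199a-1).
miR-199a-5p: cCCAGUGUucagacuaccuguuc
The arrays report messenger RNA, and the level of the microRNA in these lungs is not analysed here.

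Some arrays stood apart. Transcripts of developing thymocytes were high on 2 arrays of the bleomycin group with LNA-control, replicates 1 and 4, where Rag1, a recombinase of immature lymphocytes, read 10.03 and 10.88 against 5.43 to 6.10 on the other arrays. Ucp1, the uncoupling protein of brown fat, read 5.57 and 5.56 on replicate 3 of the PBS groups with LNA-control and with the inhibitor, and 7.65 to 13.86 elsewhere. The mean of 15 fat genes was 11.35 to 11.71 after bleomycin with the inhibitor and 10.51 to 10.96 after bleomycin with LNA-control. The mean of 15 heart muscle genes was 10.47 to 11.10 and 9.93 to 10.40 in the same groups, and that of 16 squamous epithelium genes was 11.38 to 12.09 and 10.54 to 11.38. An interaction was called by limma for 0 of the fat, 0 of the squamous, 0 of 13 thymocyte and 2 of the heart genes, both higher, and 3 fat, 1 squamous and 0 thymocyte genes passed an unadjusted p under 0.05. RNA integrity numbers averaged 8.33 in each PBS group, 8.2 after bleomycin with LNA-control and 9.0 after bleomycin with the inhibitor. The part of these differences in the results was not tested as a cause, and values without the arrays concerned or with the 3 tissue scores (squamous, fat and heart) as covariates are given beside the lists.

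**Figure D1:**
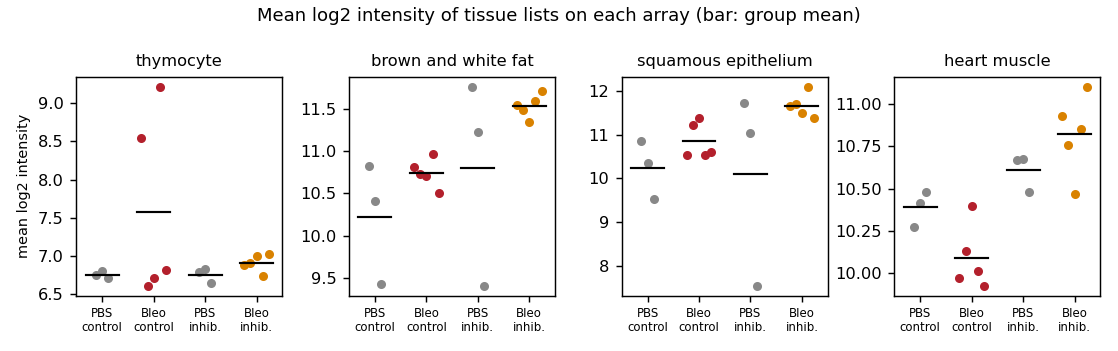
Mean log2 intensity of the measured members of 4 tissue lists on each array (points) with the group mean (bar), for thymocyte, fat, squamous epithelium and heart muscle genes. The thymocyte list is high on 2 of the 5 arrays of bleomycin with LNA-control, fat and squamous genes are low on replicate 3 of both PBS groups, and the fat and heart lists are higher in all 5 arrays of bleomycin with the inhibitor than in all 5 of bleomycin with LNA-control.

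Of 20863 genes tested, 1462 (7.01%) had an interaction at an adjusted p under 0.05 (limma, Benjamini-Hochberg over all genes, as throughout). The bleomycin effect was lower with the inhibitor for 821 of them (3.94%) and higher for 641 (3.07%), and it differed by 2-fold or more for 287 genes, 200 lower and 87 higher. The deposited values are quantile normalized, which gives every array the same distribution, so a shift of all genes at once could not be seen. Bleomycin itself was called for 3651 genes (17.5%) with LNA-control, 2003 up (9.6%) and 1648 down (7.9%), and for 2786 (13.4%) with the inhibitor, 1525 up (7.31%) and 1261 down (6.04%).

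Most called interactions were responses that shrank. A response was counted as shrunk when the bleomycin effect with LNA-control was called, the interaction was called against it, and the effect with the inhibitor was not called with the other sign. There were 992 such genes (4.75%), of which 625 had risen and 367 had fallen in the LNA-control arm. Only 50 of the 992 were still called in the same direction with the inhibitor, and the remaining 942 were not called there. The estimate with the inhibitor had the other sign, uncalled, for 590 of the 992 (59.5%), so a response that vanished and one that turned round are not separated within this class. The mirror class of grown responses, called with the inhibitor and with an interaction of the same sign, held 312 genes (1.5%), 187 higher and 125 lower, and none of them was called in the same direction with LNA-control, where the uncalled estimate had the other sign for 271. Reversed responses, called in both arms with opposite signs, numbered 56 (0.268%). Equal responses were set by an interval and not by a failed test: called in both arms with one sign, and with the 95% interval of the interaction inside -0.5 to 0.5 on the log2 scale. These numbered 407 (1.95%), 188 up and 219 down, and the interval ends nearest the bound lay at 0.4996 inside and 0.5008 outside it. A bound of 0.3 left 103 of them. The bound was not scaled to the response. For responses near or below 0.5, such as those of Plin2, Pparg and Sirt1, it would admit a difference as large as the response itself. A further 102 genes had a called interaction without a called response in either arm, and 3928 genes with a response were undecided. These classes are descriptions, since the same arrays enter the response and the interaction.

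The strongest responses showed the asymmetry most plainly. With LNA-control 371 genes moved 2-fold or more and were called, 302 up and 69 down. Of these 239 shrank, 3 reversed (Ctsa, Hamp and Krt79), 1 was equal (Cd226) and 128 were undecided. For the 302 that had risen the median effect was 1.29 with LNA-control and 0.23 with the inhibitor, and for the 69 that had fallen it was -1.20 and -0.28. Genes picked for a large effect in one arm tend to show a smaller one in another, so the opposite choice was made too: of 100 genes called and moved 2-fold with the inhibitor, 21 grew, 77 were undecided, 1 shrank (C1qc) and 1 was equal (Cd226 again). The absolute estimate was smaller in the other arm for 369 of the 371 and for 93 of the 100. The medians above are of genes chosen in the LNA-control arm, so they do not measure the loss of response free of this choice. Undecided does not mean alike, since the 95% interval reached a median of 0.704 to either side of the estimate for the 128 undecided genes.

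The same interaction can be read as the inhibitor effect in bleomycin lungs minus that in PBS lungs. The inhibitor effect was called for 5188 genes (24.9%) in bleomycin lungs, 2803 higher (13.4%) and 2385 lower (11.4%), and for 10 genes (0.0479%) in PBS lungs, 7 higher (0.0336%) and 3 lower (0.0144%), where 1526 passed an unadjusted p under 0.05. Same-numbered PBS arrays deviated together in all 3 pairs (correlations of 0.411, 0.108 and 0.497). With these arrays as pairs 11 genes were called in PBS lungs, and 3 were when all 4 groups were blocked by number. The fit with pairs used a consensus correlation of only 0.036, so it could differ little from the fit without them. Of the 1462 genes with an interaction, 1368 had a called inhibitor effect in bleomycin lungs only, 2 in PBS lungs only, 2 in both and 90 in neither. The estimate was larger in bleomycin lungs for 1318 and larger in PBS lungs for 144. Its sign was opposite in PBS and bleomycin lungs for 1291, so the PBS estimates, called or not, add to most of these interactions. These genes were chosen for a large difference between the same estimates, and such a choice favours opposite signs. The count of 1291 therefore does not show an opposite inhibitor effect in PBS lungs. The PBS groups had 3 arrays each, and an inhibitor effect in bleomycin lungs without a called interaction was seen for 3818 genes.

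**Figure D2:**
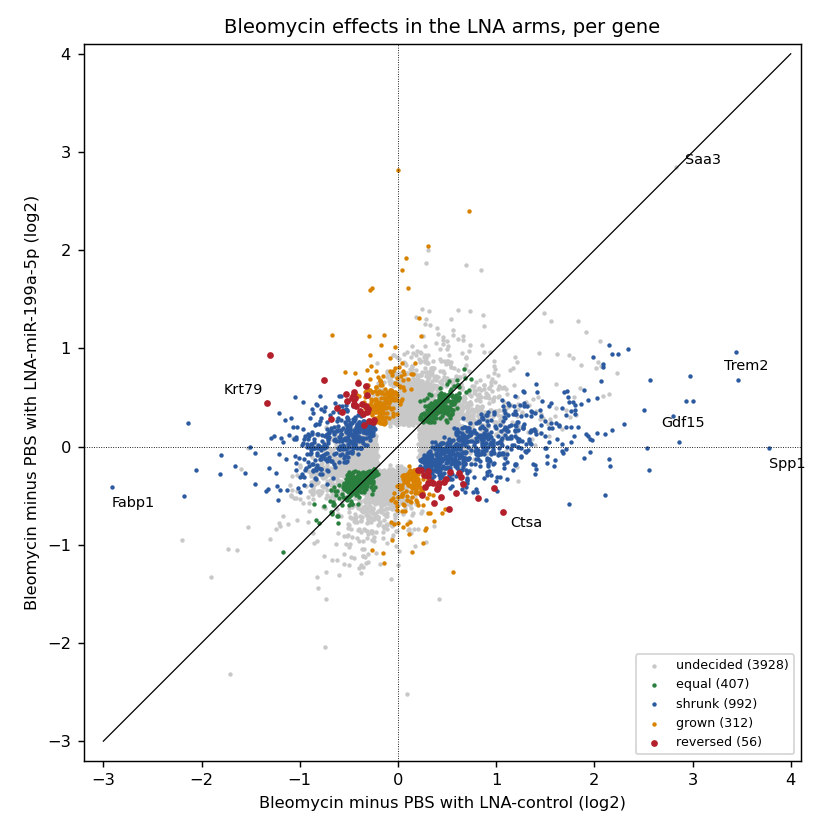
Each point is a gene called in at least 1 arm, with its bleomycin effect in the LNA-control arm (x axis, log2) and in the inhibitor arm (y axis, log2), coloured by response class. Shrunk responses (992) lie along the horizontal line at 0, with Spp1, Trem2 and Gdf15 at the right and Fabp1 at the left, while Saa3 lies on the diagonal of equal size.

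Macrophage genes led the shrunk responses. Of 22 genes listed for the macrophages of injured, scarring lung, the interaction was lower for 13 and higher for 1, beside 3.94% and 3.07% of all genes. These shares are the background for each list count that follows. The list's median bleomycin effect was 0.97 with LNA-control and 0.25 with the inhibitor, and its median interaction was -0.74. Among 22 monocyte and interstitial macrophage genes the interaction was lower for 10 and higher for 1, with medians of 0.66 and 0.26 in the arms. Of 23 lysosome genes 10 were lower and 0 higher, with medians of 0.52 and 0.15. With the tissue scores in the model the lower interactions numbered 7, 3 and 2 in these lists, with median interactions of -0.60, -0.34 and -0.35 against -0.74, -0.55 and -0.44. Without the thymocyte-rich arrays they numbered 12, 8 and 7, and without the PBS arrays lacking Ucp1 11, 7 and 7.

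Spp1 encodes osteopontin, a secreted phosphoprotein and a mark of macrophages in scarring lung. In PBS lungs it read 10.02, 10.32 and 10.40 with LNA-control and 10.52, 10.57 and 10.56 with the inhibitor. After bleomycin it read 14.47, 13.72, 13.33, 14.01 and 14.59 with LNA-control and 10.57, 10.82, 10.53, 10.41 and 10.33 with the inhibitor. The 5 arrays of bleomycin with LNA-control lay apart from all 11 others. The bleomycin effect was 3.78 with LNA-control, a 13.7-fold rise, and -0.02 with the inhibitor, so the interaction was -3.80 ± 0.30 (SE; adjusted p = 2.81e-06), the most negative of all genes called above the median level.

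Trem2, a lipid receptor of macrophages, shrank without vanishing. It read 9.61, 9.60 and 9.39 in PBS lungs with LNA-control and 9.98, 10.04 and 10.03 with the inhibitor, then 13.00, 12.92, 13.01, 12.89 and 13.16 after bleomycin with LNA-control and 10.52, 10.62, 10.54, 10.76 and 11.00 after bleomycin with the inhibitor. The 4 groups did not overlap. The rise was 11.1-fold in the LNA-control arm and 1.60-fold in the inhibitor arm, called in both, and the interaction was -2.79 ± 0.14 (adjusted p = 2.85e-08). Gpnmb, a transmembrane glycoprotein of lipid-laden macrophages, behaved alike: 8.95, 8.88 and 8.81 against 9.75, 9.56 and 9.40 in PBS lungs, and 11.89, 11.86, 11.93, 11.58 and 11.81 against 10.01, 9.87, 9.90, 10.30 and 10.10 after bleomycin. Its interaction was -2.47 ± 0.15, and part of it lay in PBS lungs, where all 3 inhibitor arrays were above all 3 control arrays by a mean of 0.69 (adjusted p = 0.058).

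Other macrophage genes lost most of their response. The interaction was -2.54 for Mmp12, the macrophage elastase, -2.13 for the membrane protein Ms4a7, -1.98 for Clec4n, the lectin also called dectin-2, and -1.89 for Ctsk, the collagen-cleaving cathepsin K. It was -1.31 for Ctss, cathepsin S, and -1.18 for Cd68, a lysosomal membrane protein of macrophages. The genes just named had no called bleomycin effect in the inhibitor arm. The complement chains C1qa, C1qb and C1qc, made by macrophages, rose in both arms: 4.52-fold, 4.73-fold and 4.44-fold with LNA-control and 1.92-fold, 1.92-fold and 2.05-fold with the inhibitor. The Fc receptor Fcgr3 rose 2.57-fold and 1.29-fold. Ctsd, cathepsin D, rose 2.64-fold and 1.26-fold. Ctsh, a cathepsin also abundant in type 2 cells, and Lipa, the lysosomal acid lipase, rose with LNA-control by 0.94 and 0.69 and read 0.10 and -0.18 with the inhibitor, not called. Plin2, which coats lipid droplets, counted as equal in the arms (0.51 and 0.36).

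**Figure D3:**
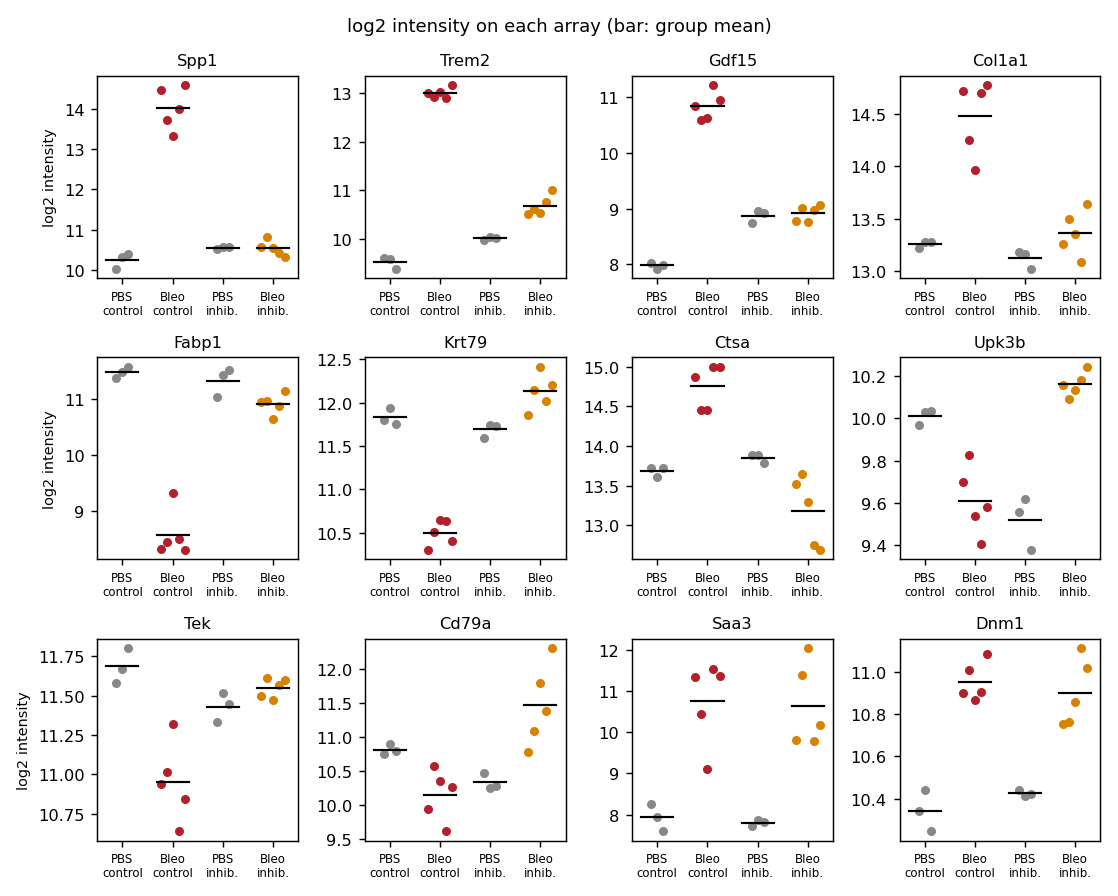
log2 intensity of 12 genes on each array (points) with the group mean (bar) in the 4 groups. Spp1, Trem2, Gdf15 and Col1a1 are highest after bleomycin with LNA-control, and Fabp1 and Tek are lowest there. Trem2 also rises in the inhibitor arm, and Gdf15 is higher in PBS lungs with the inhibitor than with LNA-control. Krt79, Ctsa and Upk3b move in opposite directions in the arms, Cd79a is highest after bleomycin with the inhibitor, and Saa3 and Dnm1 rise in both arms.

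Genes of the p53 response to DNA damage formed another shrunk group. Of 29 measured p53 targets, 13 had a lower interaction and 0 a higher one, and the median bleomycin effect was 0.38 with LNA-control and -0.06 with the inhibitor. The tissue scores left 7 of the 13, with a median interaction of -0.36 against -0.43. Ccng1, cyclin G1 and a direct p53 target, read 10.93, 10.73 and 10.80 in PBS lungs with LNA-control and 11.21, 11.09 and 10.97 with the inhibitor. After bleomycin it read 12.30, 12.18, 12.05, 12.24 and 12.21 with LNA-control and 11.02, 10.99, 11.11, 10.69 and 10.75 with the inhibitor. Only the bleomycin arrays with LNA-control stood above the rest, and the interaction was -1.55 ± 0.14 (adjusted p = 9.78e-06). Psrc1, a spindle protein and p53 target, had an interaction of -2.56, and Zmat3, an RNA-binding p53 target, rose 1.93-fold with LNA-control and read -0.06 with the inhibitor. Cdkn1a, the cyclin-dependent kinase inhibitor p21, rose 3.71-fold with LNA-control and was 1.49-fold higher with the inhibitor, where it was not called (interaction -1.32 ± 0.30, adjusted p = 0.0184).

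Gdf15, a stress cytokine induced by p53 and by the integrated stress response, was 1 of the 2 genes named here with a called inhibitor effect in PBS lungs. In PBS lungs it read 8.03, 7.92 and 7.99 with LNA-control and 8.74, 8.95 and 8.93 with the inhibitor. After bleomycin it read 10.84, 10.59, 10.63, 11.21 and 10.95 with LNA-control and 8.78, 9.01, 8.77, 8.98 and 9.07 with the inhibitor. In the inhibitor arm the PBS and bleomycin arrays thus overlapped at a level above the PBS arrays with LNA-control. The inhibitor effect was called in PBS lungs (0.89, adjusted p = 0.0289), and it makes up 0.89 of the interaction of -2.81 ± 0.17. Il33, an alarmin held in the nuclei of epithelial cells, was the other. It read 11.80, 11.75 and 11.70 in PBS lungs with LNA-control and 12.24, 12.49 and 12.59 in PBS lungs with the inhibitor, against 12.30, 12.13, 12.39, 12.24 and 12.36 and 12.21, 12.28, 12.46, 12.00 and 12.20 after bleomycin. The PBS arrays with LNA-control were below all others, which overlapped. Its interaction of -0.75 ± 0.14 (adjusted p = 0.00598) lay in the PBS lungs: the inhibitor effect was 0.69 there (adjusted p = 0.0368) and -0.06 in bleomycin lungs. The class of shrunk responses thus holds genes of unlike pattern.

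Cell division genes had the most negative median interaction of the 40 lists. Of 40 measured, 35 rose with LNA-control, and with the inhibitor limma called 0 (1 at an unadjusted p under 0.05), and the medians were 1.31 and 0.11. The interaction was lower for 14 and higher for 0, with a median of -1.06. Both the count and the median depended on the arrays and terms used: without the 2 thymocyte-rich arrays 2 were called (median -0.76), without the 2 PBS arrays lacking Ucp1 limma called 0 (26 at an unadjusted p under 0.05, median -1.09), and with the tissue scores in the model 0 (4 at an unadjusted p under 0.05, median -0.23). Leaving out single arrays gave medians of -1.27 to -0.94 and 1 to 32 called, the fewest when replicate 3 was dropped from the PBS group with LNA-control and the most when replicate 3 was dropped from the bleomycin group with LNA-control. Spc25 of the kinetochore had an interaction of -1.90, Prc1 of the central spindle -1.87, the kinase Cdk1 -2.32 and Ect2, which drives cytokinesis, -1.61. The probes used for Cdk1 and Ect2 had means of 7.60 and 8.45, below the median level of 8.47. Other probes of Cdk1, with low means of 5.54 and 5.24, gave -0.40 and -0.27, not called. That of Ect2, with a mean of 5.54, gave -0.63, not called.

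Ccnb2, cyclin B2, was among the less stable members. It read 9.47, 9.25 and 9.04 in PBS lungs with LNA-control and 9.79, 9.55 and 9.64 with the inhibitor, then 11.37, 10.61, 9.42, 11.30 and 11.14 after bleomycin with LNA-control and 9.55, 9.71, 9.83, 9.14 and 9.22 after bleomycin with the inhibitor. Replicate 3 of bleomycin with LNA-control lay within the range of the PBS arrays while its 4 fellows lay above all others. The interaction was -1.68 ± 0.46 (adjusted p = 0.0375), and it was no longer called in 17 of 28 alternative settings.

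Members of this list rose together in the LNA-control arm, so their promoters were read for the letters of elements known from genes switched on late in the cell cycle. These are the CCAAT box and TTTGAA, the letters of a cell cycle homology region, searched on both strands from 250 bases before to 50 after each RefSeq start (GRCm38.p6), with overlapping matches allowed. The 100 bases before and 20 after the start are shown for Ccnb2 (chr9:70421535-70421654, minus strand) and Prc1 (chr7:80294351-80294470, plus strand), because both genes are shrunk members that hold both motifs, given here in capitals.
Ccnb2: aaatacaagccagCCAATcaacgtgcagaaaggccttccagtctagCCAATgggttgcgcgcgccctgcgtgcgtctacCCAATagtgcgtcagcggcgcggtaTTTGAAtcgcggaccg
Prc1: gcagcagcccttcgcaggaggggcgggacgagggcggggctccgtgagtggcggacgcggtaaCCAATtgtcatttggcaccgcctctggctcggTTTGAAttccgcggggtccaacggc
The CCAAT box lies 87, 54 and 21 bases before the start of Ccnb2 and 37 bases before that of Prc1. Of the 14 shrunk cell division genes 12 had a promoter in the table, and 10 of these held both motifs, as did 54.3% of the 35 listed promoters. Over all 27025 promoters 37.9% held CCAAT, 18.1% held TTTGAA and 7.12% held both. Among 468 promoters of other shrunk genes that had risen with LNA-control, 38.7% held CCAAT, 13.9% held TTTGAA and 8.33% held both. A match is a description of letters and not a site.

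Extracellular matrix genes shrank as well. Of 29 fibrillar matrix genes 23 rose with LNA-control and 5 with the inhibitor, the medians were 0.86 and 0.21, and the interaction was lower for 13 and higher for 1. The count fell to 5 without the thymocyte-rich arrays, to 5 without the PBS arrays lacking Ucp1 and to 0 with the tissue scores in the model (limma, 12 at an unadjusted p under 0.05), where the medians of the interaction were -0.55, -0.58 and -0.32 against -0.63. Dropping replicate 2 or replicate 3 of the PBS group with LNA-control gave 6, dropping replicate 2 of the PBS group with the inhibitor 8, and dropping replicate 3 of the bleomycin group with LNA-control 21.

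Col1a1, the main chain of type I collagen, read 13.22, 13.28 and 13.28 in PBS lungs with LNA-control and 13.18, 13.16 and 13.02 with the inhibitor. After bleomycin it read 14.73, 14.26, 13.96, 14.71 and 14.78 with LNA-control and 13.25, 13.50, 13.35, 13.09 and 13.64 with the inhibitor. All 5 bleomycin arrays with LNA-control were above all others, while those with the inhibitor reached into the PBS range. The rise was 2.34-fold and the interaction -0.98 ± 0.23 (adjusted p = 0.0195). Fn1, fibronectin, read 14.28, 14.12 and 14.12 against 14.19, 14.29 and 14.09 in PBS lungs, and 15.90, 15.57, 15.00, 15.80 and 16.07 against 14.55, 14.56, 14.26, 14.36 and 14.48 after bleomycin. Its groups after bleomycin did not overlap, and its interaction was -1.24 ± 0.24 (adjusted p = 0.00664).

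Other matrix genes ran from shrunk to equal to grown. Col5a2 of type V collagen had an interaction of -1.21, Mfap4, a microfibril glycoprotein, -1.12 and Fbn1, fibrillin-1, -0.91. Col3a1, the chain of type III collagen, rose 2.00-fold with LNA-control and was 1.29-fold higher with the inhibitor, and its interaction missed the threshold (-0.63, 95% interval -1.07 to -0.20, adjusted p = 0.0753). Col6a1 of type VI collagen was equal. It read 13.44, 13.54 and 13.47 against 13.29, 13.27 and 13.30 in PBS lungs and 14.09, 14.38, 14.15, 13.97 and 14.26 against 13.83, 13.67, 13.80, 14.09 and 14.55 after bleomycin. Bleomycin arrays lay above PBS arrays in both arms, with effects of 0.68 and 0.70 and an interval of the difference of -0.43 to 0.47. Dcn, decorin, rose by 0.48 with the inhibitor and read -0.13 with LNA-control, not called. Postn, periostin, fell by 0.57 with the inhibitor and read -0.02 with LNA-control. Both counted as grown, and their interactions (0.61 and -0.55) were lost in 13 and 15 of 28 alternative settings.

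Among 23 matrix proteases and their inhibitors the interaction was lower for 7 and higher for 1. The 7 became 2 without the thymocyte-rich arrays, 1 without the PBS arrays lacking Ucp1 and 0 with the tissue scores, where limma called only the higher one (5 at an unadjusted p under 0.05). Leaving out single arrays gave 2 to 7, the fewest when replicate 3 was dropped from the PBS group with LNA-control, and it was 3 when replicate 2 of either PBS group was dropped. Adamts4, an aggrecanase, had an interaction of -2.01, Mmp2, gelatinase A, -1.22 and Mmp19 -1.18, whereas Mmp9, the gelatinase of neutrophils, fell by 0.78 with LNA-control and had an interaction of 1.07. Timp1, an inhibitor of these proteases, read 9.94, 9.97 and 9.81 against 9.93, 10.02 and 10.15 in PBS lungs and 12.92, 12.16, 11.37, 12.81 and 13.10 against 10.13, 11.17, 11.45, 10.32 and 10.51 after bleomycin. Its bleomycin groups overlapped at 1 array of each. The interaction of -1.89 ± 0.48 (adjusted p = 0.0275) was lost in 13 of 28 alternative settings. Lama1, the alpha-1 laminin chain of basement membrane, had an interaction of -2.27.

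The TGF-beta pathway is the main pathway known to drive collagen synthesis. Among its 24 genes 3 interactions were lower and 2 higher, beside 3.94% and 3.07% of all genes. With the tissue scores limma called 0 (8 at an unadjusted p under 0.05). Pmepa1, a feedback inhibitor of the pathway, had an interaction of -0.99 and the receptor Tgfbr1 -0.60. The co-receptor Tgfbr3 fell by 0.85 with LNA-control and had an interaction of 0.93. The ligand Tgfb1 rose by 0.86 with the inhibitor and read 0.22 with LNA-control, but its interaction was not called (0.64, 95% interval -0.10 to 1.37). Acta2, the actin of smooth muscle and myofibroblasts, rose by 0.55 with the inhibitor and read 0.09 with LNA-control, with an interaction of 0.46 (interval -0.04 to 0.95) that was not called. Of 15 smooth muscle genes 0 were lower and 1 higher, beside the same shares of all genes.

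Epithelial lists gave unlike counts. Of 21 genes of the transitional, keratin-rich epithelium that follows injury, 10 had a lower interaction and 0 a higher one, with medians of 0.55 and 0.18 in the arms. Cldn4, a tight junction claudin induced in injured alveoli, had an interaction of -1.55, the annexin Anxa1 -0.81 and galectin-3 (Lgals3), which macrophages also make, -0.77. Of the listed keratins Krt18 shrank, Krt8 and Krt7 were undecided and Krt19 was not called in either arm. Lgals3, Cdkn1a and lipocalin 2 (Lcn2), all among the 10, also stand in other lists. The count of lower interactions was 4 without the PBS arrays lacking Ucp1 and 1 with the tissue scores, with medians of -0.59 and -0.54 against -0.51. Among 18 type 1 genes 3 were lower and 3 higher: Spock2, a proteoglycan, and Igfbp2, a growth factor binding protein, had interactions of -1.32 and -1.17, while Hopx, a homeobox cofactor of type 1 cells, fell by 0.51 with LNA-control and had an interaction of 0.71. None of the higher ones was called by limma with the tissue scores or without either pair of doubted arrays, where 4, 10 and 10 type 1 genes passed an unadjusted p under 0.05. Of 20 type 2 genes limma called 0 either way (4 at an unadjusted p under 0.05). Sftpc read the highest value of the table, 18.32, on every array but 2 of bleomycin with the inhibitor, so a change in it could not be measured.

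**Figure D4:**
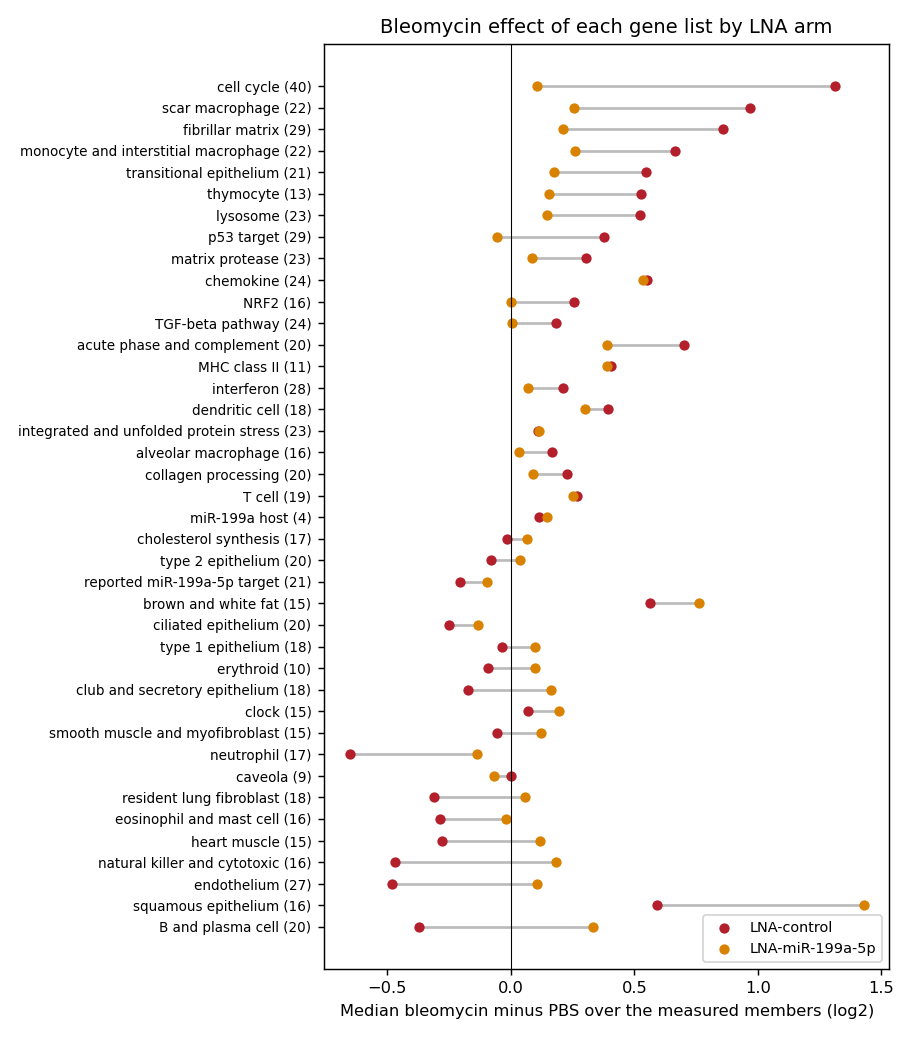
Median bleomycin effect of each gene list (log2, x axis; number of measured members in brackets) with LNA-control (red) and with LNA-miR-199a-5p (orange), ordered by median interaction. Cell cycle, scar macrophage and fibrillar matrix lists lie far to the right with LNA-control and near 0.1 to 0.3 with the inhibitor, chemokine and MHC class II lists have nearly the same median in the arms (0.10 and 0.75 for chemokines with the tissue scores as covariates, which are not plotted), and endothelium, natural killer and B cell lists lie below 0 with LNA-control and above 0 with the inhibitor.

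Shrunk falls were the counterpart, and the largest belonged to a gene of resident alveolar macrophages. Fabp1, a fatty acid binding protein, read 11.39, 11.49 and 11.59 in PBS lungs with LNA-control and 11.04, 11.43 and 11.53 with the inhibitor. After bleomycin it read 8.32, 8.44, 9.31, 8.49 and 8.30 with LNA-control and 10.95, 10.97, 10.65, 10.87 and 11.16 with the inhibitor. Only the bleomycin arrays with LNA-control were low, the fall was 7.54-fold, and the interaction was 2.50 ± 0.27 (adjusted p = 6.64e-05). The 16 alveolar macrophage genes did not move as one, with 3 interactions lower and 3 higher and a median of -0.07. Olr1, a scavenger receptor for oxidised lipid, had an interaction of -1.36 and Atp6v0d2, a proton pump subunit, -1.08. Pparg, the nuclear receptor that sets up this cell type, was equal (0.35 and 0.39).

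Most listed endothelial genes fell with LNA-control, and none was called lower with the inhibitor. Of 27, 18 fell and 0 rose with LNA-control, 0 fell and 5 rose with the inhibitor, and the interaction was higher for 16 and lower for 0, with medians of -0.48 and 0.10 in the arms. Tek, the angiopoietin receptor, read 11.58, 11.67 and 11.80 against 11.33, 11.51 and 11.45 in PBS lungs and 10.94, 11.02, 11.32, 10.64 and 10.85 against 11.50, 11.61, 11.47, 11.57 and 11.60 after bleomycin. Its bleomycin groups did not overlap, and the interaction was 0.85 ± 0.16 (adjusted p = 0.00572). Plvap of fenestral diaphragms had an interaction of 1.09, the endothelin receptor Ednrb 1.01 and the VEGF receptor Kdr 0.64. Esm1, a proteoglycan secreted by endothelium, fell 3.17-fold with LNA-control and had an interaction of 1.47. The receptor Tie1 and the transcription factor Sox18 were called with the inhibitor only, up by 0.53 and 0.59. Without the thymocyte-rich arrays 4 of the 27 were called, and with the tissue scores 0 (16 at an unadjusted p under 0.05). The list's median interaction was then 0.58 and 0.49, against 0.64. Leaving out single arrays gave 8 to 18, and 8 to 10 when the array dropped was a PBS array other than replicate 3 with the inhibitor, where it was 16. Erg, an endothelial transcription factor outside the list, fell in both arms and is described with the equal responses.

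Natural killer genes were another group of shrunk falls. Of 16 natural killer and cytotoxic genes the interaction was higher for 8 and lower for 0, with medians of -0.47 and 0.18. With the tissue scores 1 was called, with a median interaction of 0.60 against 0.59. Gzma, granzyme A, read 13.56, 13.38 and 13.18 against 12.83, 13.06 and 13.09 in PBS lungs, and 12.24, 12.31, 12.82, 12.58 and 12.05 against 13.10, 13.24, 13.37, 13.03 and 13.15 after bleomycin. The bleomycin groups did not overlap, and neither did the PBS groups, which stood in the opposite order. The interaction of 1.15 ± 0.20 (adjusted p = 0.00385) was made of 0.78 from bleomycin lungs and 0.38 from PBS lungs, the latter not called. Gzmb, granzyme B, had an interaction of 1.14 and Ncr1, the activating receptor NKp46, 0.76, while the receptor Klrb1c and the granule protein Nkg7 reversed (-0.57 and 0.36, -0.45 and 0.48). Of 19 T cell genes 1 was higher and 0 lower, and the arm medians were 0.27 and 0.25. The former rested on the thymocyte-rich arrays: without them the medians were -0.15 and 0.25, with a median interaction of 0.26 against -0.03 and 0 genes called by limma (6 at an unadjusted p under 0.05).

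Some granulocyte genes also had smaller falls with the inhibitor. S100a8 and S100a9, the calprotectin subunits of neutrophils, fell 2.35-fold and 2.20-fold with LNA-control, and with the inhibitor S100a8 fell 1.32-fold and S100a9 was not called. Their interactions were 0.83 and 1.01. Within the 17 neutrophil genes 4 were higher and 2 lower, the latter with Clec4d, a lectin also of monocytes, at -0.97. Of 16 eosinophil and mast cell genes 4 were higher and 0 lower. They were Il5ra, the interleukin-5 receptor chain, at 1.01, the transcription factor Gata2 at 0.86, the receptor Kit at 0.88, which reversed, and Gata1. The interaction was not called for the remaining members, Epx, Prg2, Ccr3, Cpa3, Mcpt4 and Tpsb2 among them. With the tissue scores 2 neutrophil genes were higher and 1 was lower, and 1 eosinophil and mast cell gene was higher. The platelet factor Pf4 fell in both arms, by 1.22 and by 0.54.

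B lymphocyte genes were divided between grown and shrunk responses. Among 20 B and plasma cell genes the interaction was higher for 12 and lower for 0, the medians were -0.37 and 0.33, and 6 members shrank while 4 grew. Cd79a, a chain of the B cell receptor, read 10.76, 10.90 and 10.80 against 10.48, 10.26 and 10.28 in PBS lungs, and 9.94, 10.58, 10.35, 9.61 and 10.27 against 10.78, 11.09, 11.80, 11.39 and 12.32 after bleomycin. The bleomycin groups did not overlap, and the inhibitor arrays spread widely. It rose 2.20-fold with the inhibitor, the effect of -0.67 with LNA-control was not called, and the interaction was 1.81 ± 0.38 (adjusted p = 0.0105). Cd37, a tetraspanin of B cells, rose by 1.12 with the inhibitor and had an interaction of 1.42, while the other receptor chain Cd79b and the scaffold Bank1 fell by 0.79 and 0.87 with LNA-control and counted as shrunk. Without the thymocyte-rich arrays 4 of the 20 genes were called and without the PBS arrays lacking Ucp1 3, with medians of 0.76 and 0.77 against 0.80. With RNA integrity as a covariate 5 were called and with the tissue scores 1, with medians of 0.83 and 0.93. Leaving out single arrays gave 4 to 12, with 4 without replicate 2 or 3 of PBS with LNA-control or replicate 3 of PBS with the inhibitor. The plasma cell gene Jchain had an interval of -0.04 to 2.36 and was undecided.

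Among the larger grown responses above the median level were single genes of unlike kinds. Cyp2e1, a cytochrome P450, rose 3.07-fold with the inhibitor and had an interaction of 1.51. The matrix glycoprotein Emilin2 rose 2.19-fold (0.90) and Septin1, a cytoskeletal GTPase, 2.19-fold (1.27). The transcription factor Sox5 fell 2.08-fold (-0.79) and Trim12c, a member of the TRIM family, fell 2.12-fold (-0.93). The calls of Trim12c, Septin1 and Sox5 were lost in 12 of 27, 8 of 27 and 7 of 28 alternative settings. Other probes of Trim12c, with means of 8.07 and 8.35, gave interactions of -0.06 and -0.25, not called. Those of Sox5, with low means of 5.55 and 5.48, gave 0.09 and 0.08, not called. Below that level the eosinophil chemokine Ccl24 rose 3.07-fold with the inhibitor and read -0.27 with LNA-control (1.89 ± 0.46).

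Reversed responses were few and most were small. One of the larger was Ctsa, cathepsin A, which protects lysosomal glycosidases. It read 13.72, 13.61 and 13.72 against 13.89, 13.89 and 13.78 in PBS lungs and 14.87, 14.45, 14.46, 14.99 and 15.00 against 13.52, 13.64, 13.30, 12.76 and 12.69 after bleomycin. Bleomycin arrays lay above PBS with LNA-control and below PBS with the inhibitor, with effects of 1.07 and -0.67 and an interaction of -1.74 ± 0.28 (adjusted p = 0.00209). The other probe of Ctsa, with a mean of 7.48, gave an interaction of -0.32, not called. Krt79, a keratin found in mouse alveolar macrophages, turned the other way. It read 11.80, 11.93 and 11.75 against 11.60, 11.74 and 11.73 in PBS lungs and 10.30, 10.50, 10.64, 10.64 and 10.40 against 11.86, 12.15, 12.41, 12.01 and 12.21 after bleomycin. The effects were -1.33 and 0.44, and the interaction was 1.77 ± 0.16 (adjusted p = 9.27e-06). In both arms its bleomycin and PBS arrays did not overlap.

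Several reversed genes are known from mesothelium, the sheet that covers the lung, a theme seen after the values and not tested as a list. Upk3b, a uroplakin, read 9.97, 10.03 and 10.04 against 9.56, 9.62 and 9.37 in PBS lungs and 9.70, 9.82, 9.54, 9.40 and 9.58 against 10.16, 10.09, 10.13, 10.18 and 10.25 after bleomycin. With LNA-control bleomycin arrays were the lower ones and with the inhibitor the higher ones, and the PBS groups themselves did not overlap. The effects were -0.40 and 0.65, and the interaction of 1.05 ± 0.12 (adjusted p = 0.000162) was divided between 0.55 from bleomycin lungs and 0.50 from PBS lungs, the latter not called. Aldh1a2, which makes retinoic acid, Cldn15, a claudin, and Bnc1, a zinc finger protein, reversed likewise with interactions of 0.94, 0.84 and 0.52, and Wt1, the Wilms tumour transcription factor, grew (0.99). The inhibitor estimates in PBS lungs were negative for these 4 as well, from -0.43 to -0.32, with none called.

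Further reversals came from lymphoid and other genes. The IgM receptor Fcmr had effects of -0.75 and 0.67 (interaction 1.42), the GTPase Gimap3 of lymphocytes -0.45 and 0.56, the interferon-induced Gbp2 -0.44 and 0.43, and Ltbp4, which binds latent TGF-beta, -0.44 and 0.50. In the other direction Colec12, a scavenger receptor, had 0.37 and -0.58 and Arfgef3 0.52 and -0.63. Hamp, the iron hormone hepcidin, had -1.30 and 0.94, with an interaction of 2.23 ± 0.28 (adjusted p = 0.000254) and a mean just under the median level of all genes.

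Equal responses were of modest size. Dnm1, a dynamin that pinches off endocytic vesicles and whose gene is host to miR-199b, read 10.34, 10.44 and 10.25 against 10.44, 10.41 and 10.42 in PBS lungs and 10.90, 11.01, 10.87, 10.90 and 11.08 against 10.75, 10.76, 10.86, 11.11 and 11.02 after bleomycin. Bleomycin arrays were above PBS arrays in both arms and overlapped each other, with effects of 0.61 and 0.47 and an interval of the difference of -0.40 to 0.13. Above the median level of all genes, the class was led by size of the response with LNA-control by falls of Ctla2b, a cathepsin inhibitor (-0.85 and -0.59), Erg, a transcription factor of endothelium (-0.84 and -0.75), Zc3h6, a zinc finger protein (-0.80 and -0.78), and Cep70 of the centrosome (-0.75 and -0.61). Below that level Cd226, an activating receptor of natural killer and T cells, fell by 1.17 and by 1.07. Rises were those of the proton channel Hvcn1 (0.74 and 0.69), the kinase Map3k9 (0.72 and 0.57) and Ucp3, an uncoupling protein of muscle (0.69 and 0.56). Equality was read from 1 probe per gene. Other probes of Zc3h6 (means 6.87 and 6.27) gave interactions of 0.52 and 0.36 against 0.02. That of Erg (mean 7.05) gave 0.42 against 0.09. Those of Dnm1, Hvcn1, Map3k9 and Ucp3 ran from -0.29 to 0.23. None of these other probes was called.

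Saa3, an acute phase protein, had estimates of almost the same size in the arms and still could not be called equal. It read 8.25, 7.94 and 7.59 against 7.73, 7.86 and 7.81 in PBS lungs and 11.34, 10.45, 9.11, 11.54 and 11.37 against 9.82, 11.40, 12.06, 9.78 and 10.17 after bleomycin. All bleomycin arrays lay above all PBS arrays, and the bleomycin groups overlapped widely. The rises were 7.14-fold and 7.19-fold, and the interval of the difference ran from -1.60 to 1.62. Of 20 acute phase and complement genes 4 were lower and 0 higher, beside 3.94% and 3.07% of all genes. They were Socs3, the feedback inhibitor of cytokine signalling, at -0.95, the receptor Osmr at -0.87, lipocalin 2 (Lcn2) at -1.08 and Il6 at -1.02. The last pair was lost in 14 and 17 settings. Without the PBS arrays lacking Ucp1 limma called 0 of the 20 (8 at an unadjusted p under 0.05), and without the thymocyte-rich arrays it called 1. With the tissue scores the direction of the calls turned, with 0 lower and 2 higher and a median interaction of 0.04 against -0.18. Leaving out single arrays gave 1 to 5 lower, with 1 without replicate 2 of either PBS group.

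Chemokines as a list had medians of 0.55 and 0.54 in the arms. Of 24 interactions 2 were lower and 1 higher, beside 3.94% and 3.07% of all genes. With the tissue scores in the model the arms came apart, with medians of 0.10 and 0.75, a median interaction of 0.50 against -0.21, and 0 lower and 3 higher. Without the thymocyte-rich arrays limma called 0 (8 at an unadjusted p under 0.05). The monocyte attractant Ccl12 rose 5.08-fold and 1.99-fold and Ccl6 2.49-fold and 1.67-fold, both shrunk and still called. Ccl2 and Ccl7, monocyte attractants too, had estimates of 1.92 and 1.16 and of 1.83 and 1.28, with intervals of the interaction of -1.89 to 0.38 and -1.72 to 0.62. Cxcl13, which draws B cells, rose 3.66-fold with the inhibitor and was 1.22-fold higher with LNA-control, not called, and its interaction missed the threshold (1.59, adjusted p = 0.178). MHC class II genes had medians of 0.41 and 0.39, and only the peptide-loading modulators H2-Oa (0.91) and H2-Ob (0.74), which B cells express, were called among 11, and neither was with the tissue scores or without either pair of doubted arrays (3, 3 and 2 of the 11 at an unadjusted p under 0.05). Of 18 dendritic cell genes limma called 0 (5 at an unadjusted p under 0.05), with medians of 0.39 and 0.30.

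Few genes near the microRNA itself were called. Of 21 transcripts reported as targets of miR-199a-5p, 1 interaction was lower and 2 were higher, beside 3.94% and 3.07% of all genes. Their median interaction was 0.09, with arm medians of -0.21 and -0.10. The called ones were the cytokine Lif (-0.85), the transcription factor Ets2 (0.51) and Ikbkb, a kinase of the NF-kappa-B pathway (0.59, lost in 15 of 28 settings). Lif was low, at 5.60 to 6.58 over all arrays, against the median of 8.47 over all genes. With the tissue scores limma called 0 of the 21 (6 at an unadjusted p under 0.05). The deacetylase Sirt1 was equal (-0.35 and -0.40). Cav1, caveolin-1, read 10.99, 11.21 and 11.28 against 10.82, 10.94 and 11.05 in PBS lungs and 10.56, 10.45, 10.78, 10.61 and 10.50 against 10.88, 10.97, 10.74, 10.98 and 10.59 after bleomycin. With LNA-control all bleomycin arrays lay below all PBS arrays, with the inhibitor they overlapped, and the bleomycin groups overlapped each other. It fell by 0.58 with LNA-control and read -0.11 with the inhibitor, and the interaction of 0.48 ± 0.15 did not pass (adjusted p = 0.0623). Cavin1, a coat protein of caveolae, did (0.46, lost in 12 settings), as did the ATPase Ehd2 in the other direction (-0.39, lost in 16). The 3 hosts other than Dnm1 were not called: Dnm3os, the antisense transcript that carries miR-199a-2, had effects of 0.25 and -0.14, Dnm2 -0.02 and 0.31, and Dnm3 -0.14 and -0.02. Dnm3os was low on these arrays, with probe means of 5.39, 5.59 and 6.25 against the median of 8.47 over all genes. In that order its probes gave interactions of 0.24, -0.34 and -0.39, so a response of it could be missed. Overlapping sense and antisense transcripts may not be separated by their probes.

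How far single arrays and model terms decide these counts was measured by refitting. In the 26 alternative fits that kept every gene, 107 of the 1462 genes were called each time, 85 lower and 22 higher, of which 91 were shrunk, 3 grown and 13 reversed. They include Spp1, Trem2, Gpnmb, Gdf15, Ctsk, Ccng1, Fabp1, Krt79, Upk3b and S100a9. The interaction kept its sign for all 1462 genes in these fits except for 2 genes when probes were averaged. These genes were chosen as called on the same arrays that the refits reuse, so a kept sign was close to given. It does not measure how stable the direction is. The number called was lowest, 157, with fat, squamous and heart scores as covariates, and 513 and 525 without the PBS arrays lacking Ucp1 and without the thymocyte-rich arrays.

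**Figure D5:**
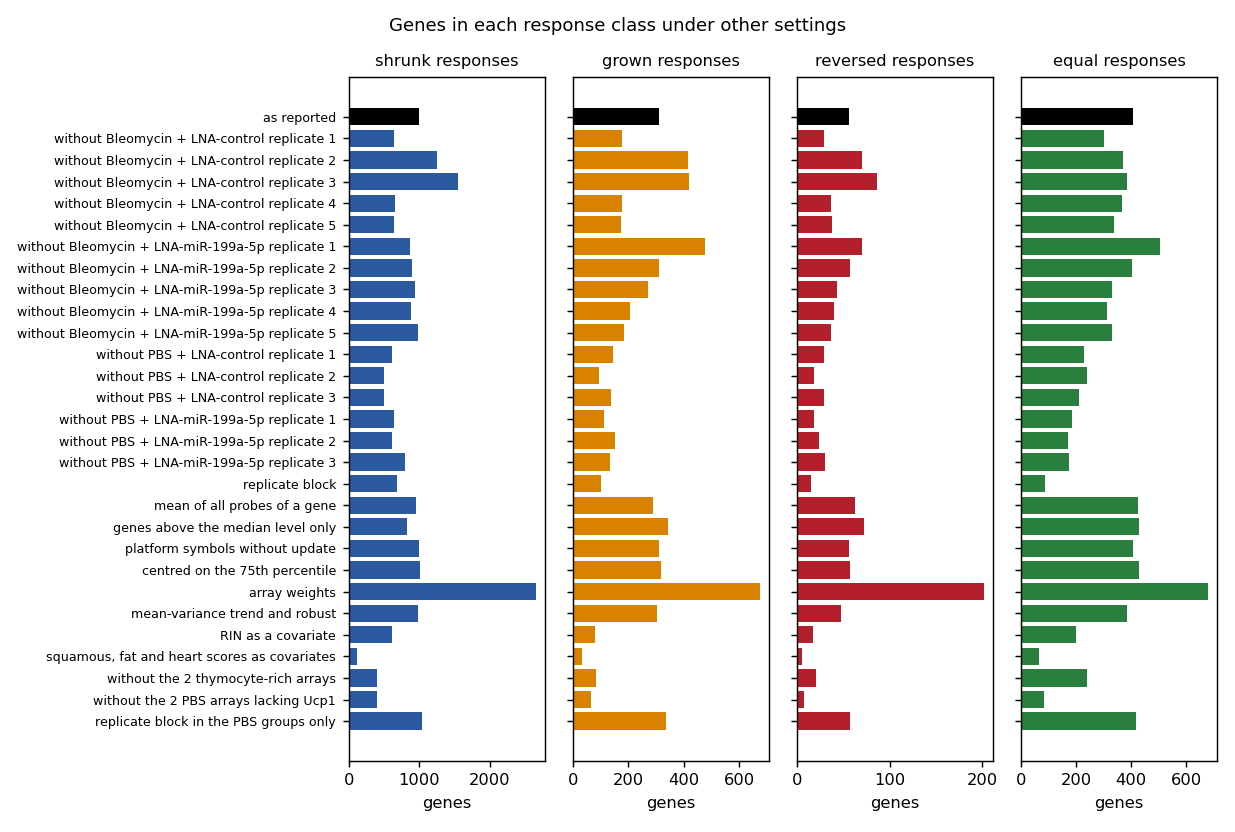
Number of genes (x axis) in the 4 response classes as reported (black) and under each alternative setting (coloured bars, 1 panel per class, each panel with its own scale). Shrunk responses outnumber grown and reversed ones in every setting, from 118 with the tissue scores as covariates to 2650 with array weights, while the equal class falls to 65 in the former.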

How the data were processed

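The deposited table holds log2 intensities of 1-colour arrays, which the authors prepared with limma per the submitters' processing notes. The deposited log2 values are quantile normalized, since the arrays' sorted values differed by at most 0.0974, and the background correction is not given in the sources used here. The values were used as deposited. One probe per gene symbol was kept, the one with the highest mean over the 16 arrays, after symbols were updated through RefSeq accessions for 29036 of 31465 named probes. A further 31511 spots without a gene name were left out.

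With limma 3.58.1 in R 4.3.3, lmFit and eBayes fitted 1 mean per group to all 16 arrays, with two-sided tests and Benjamini-Hochberg adjustment over 20863 genes. The number of arrays sets the precision. Among 488 called genes with several probes, 412 had all probes of one sign and 1 had a probe called the other way. The code was tested on simulated data.

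The comparisons, the 40 gene lists (731 of 762 distinct genes measured) and the named genes were chosen with earlier results of these data known. Named were the 12 lowest and 12 highest called interactions above the median level, 8 genes of each other class, up to 4 per list by smallest p and a set of fibrosis genes, from which a part was taken. C1qa, C1qb, C1qc, Plin2, Ccnb2, Col6a1, Postn, Dcn, Ccl2, Ccl7, Pparg, Pf4, Cd226, Kdr, Tie1, Sox18, Nkg7, Cldn15, Bnc1, Wt1, Hamp and Sirt1 were added after their values were seen.

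Replicate numbers are shared between groups. Deviations from the group means correlated by -0.008 on average over 20 same-numbered pairs (-0.373 to 0.497, with 5 over 0.1) and by 0.003 over 74 other pairs, so the numbers were not taken to pair the samples over the 4 groups. Between the PBS groups, however, all 3 same-numbered pairs were over 0.1 (0.411, 0.108 and 0.497). A fit with these pairs as a random block (duplicateCorrelation) was added after seeing the data. Its consensus correlation was 0.036, so it stayed close to the fit without a block. Alternatives were leaving out each array or the arrays that stood apart, a replicate block, array weights, RNA integrity or tissue scores as covariates, other probe rules, a level filter, another scaling and a narrower bound of 0.3 for equality.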

Additional observations from a re-analysis of the deposited data

Results flagged for a closer look

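The bleomycin effect differed between the LNA arms for 1462 genes, by the test of the difference itself. It was lower with the inhibitor for Spp1 (-3.80), Gdf15 (-2.81), Trem2 (-2.79), Gpnmb (-2.47), Lama1 (-2.27), Ms4a7 (-2.13), Adamts4 (-2.01), Clec4n (-1.98), Spc25 (-1.90) and Ctsk (-1.89), and higher for Fabp1 (2.50), Cd79a (1.81), Igfbp3, a growth factor binding protein (1.81), Krt79 (1.77), Cyp2e1 (1.51), Esm1 (1.47) and Fcmr (1.42). The largest differences among well-expressed genes hold some with no place in the lists. Fxyd4, a regulator of the sodium pump, rose 6.95-fold with LNA-control and had an interaction of -2.49. Slc26a4, the anion exchanger pendrin of airway epithelium, rose 7.88-fold and had an interaction of -2.26, which was lost in 17 of 28 alternative settings. On the other side stood Pltp, the phospholipid transfer protein, with 1.93 and no called response in either arm (-0.94 and 0.99). Bex2 (1.68), Ppp1r1b, a phosphatase inhibitor (1.55), Nrn1, neuritin (1.51), and Chad, chondroadherin (1.42), were shrunk falls.

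Of 42 groups of 5 arrays checked over 21 genes, 1 held an array far from its fellows, where chance gives about 1 in 20. On replicate 3 of the bleomycin group with LNA-control Fabp1 read 9.31, while the other 4 arrays read 8.30 to 8.49. The same array had the lowest Spp1, Col1a1, Fn1, Saa3 and Timp1 of its group and the lowest Ccnb2, so it sat nearest to the PBS arrays for these genes, and without it 2215 genes had a called interaction.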

How the results depend on the processing

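Counts of called genes depended on the arrays and model terms used. The interaction count of 1462 became 947 with a replicate block, 3862 with array weights, 733 with RNA integrity and 157 with squamous, fat and heart scores as covariates, 525 without the thymocyte-rich arrays and 513 without the PBS arrays lacking Ucp1, the last chosen after seeing the data. In the same order, except the block, shrunk responses (992) numbered 2650, 607, 118, 405 and 398, grown ones (312) 675, 81, 33, 82 and 64, reversed ones (56) 202, 17, 6, 21 and 8, and equal ones (407) 679, 199, 65, 241 and 85. With the replicate block these classes held 681, 100, 15 and 89 genes. With a block for the same-numbered PBS arrays only, also added after seeing the data, 1545 interactions were called, all 1462 among them, and the classes held 1033, 338, 57 and 416. That block had a consensus correlation of 0.036, so little change could come from it. The equality bound of 0.3 left 103. Leaving out 1 array gave 632 (PBS with LNA-control, replicate 2) to 2215 (bleomycin with LNA-control, replicate 3) interactions, 495 to 1554 shrunk, 94 to 476 grown, 18 to 87 reversed and 172 to 505 equal responses. Probe averaging, the level filter, platform symbols, scaling by the 75th percentile and the trended, robust fit kept each count within 1.5 times. None of the 121 named genes with a called interaction changed direction, which their choice on the same arrays made likely. Of these 121, 28 were called in every setting and 16 were lost in 10 or more. Tissue scores took 90 of these calls, the PBS arrays 41 and the thymocyte-rich arrays 35. The scores differ between the bleomycin groups, so what they remove and the interaction cannot be told apart.

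Arrays have no count depth. With 3 PBS arrays a group the median standard error of the interaction was 0.148, and the 95% interval reached a median of 0.314 to either side.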
